A study of Mus musculus with 3 samples.

Results

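The 10 genes described here encode p53 (Trp53), its inhibitors Mdm2 and Mdm4, and genes of growth arrest that p53 and other stress signals induce (Gadd45a, Gadd45b, Gadd45g, Btg1, Btg2, Plk2 and Plk3). They were taken by symbol from a table of 20308 genes, and all 10 had a row. RNA was sequenced from satellite cells, the stem cells of skeletal muscle, in 3 libraries that form 1 group. The cells came from Pax7-ZsGreen mice aged 3 months, in which a green fluorescent reporter follows Pax7, and about 200000 reporter-positive cells per library were collected by flow sorting from enzyme-digested muscle. Muscle of several age-matched mice was collected, and how many mice went into each library is not given. The sample labels name the tibialis anterior whereas the series text names hindlimb muscle as a whole. No other genotype, treatment, age or undigested tissue was measured, so levels are described within this population and no condition is compared.

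The transcription factor p53 is kept low in unstressed cells by MDM2, a ubiquitin ligase that marks it for destruction, and by MDM4, a relative of MDM2 that binds p53 and blocks its activity. Because Mdm2 is itself a target of p53, the pair forms a feedback loop. When p53 is stabilised by DNA damage or other stress it switches on genes that halt the cell cycle, among them Gadd45a and Btg2. Several of these arrest genes also respond within minutes to growth factors, cytokines and stress kinases without p53, which places them among the immediate-early genes. Satellite cells rest outside the cell cycle in uninjured muscle and leave that state when they are activated.

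The sequences upstream of 7 of these genes are shown. Gadd45a, Gadd45b, Gadd45g, Btg2 and Plk2 were lowest in replicate 2, and Mdm2 and Trp53 were highest there (values below). Whether the sequences bear on that order was not tested. Each is the RefSeq promoter sequence (GRCm38.p6), 5′ to 3′ on the gene's strand, within the 250 bases before the start. Bases annotated as exon in GENCODE M21 were left out, which shortened Gadd45a to 200, Gadd45b to 232 and Trp53 to 103 bases. Capitals mark the motif ATTTGCAT (octamer) in Gadd45a and Gadd45g, the E-box and the TATA box in Gadd45b and Gadd45g, TGACGTCA (the cyclic AMP response element) in Btg2 and Plk2, and a p53 half-site by its consensus in Mdm2 and Trp53. Gadd45a has a p53 half-site too, in bases left out of its print.
Gadd45a, chr6:67037458-67037657, minus strand: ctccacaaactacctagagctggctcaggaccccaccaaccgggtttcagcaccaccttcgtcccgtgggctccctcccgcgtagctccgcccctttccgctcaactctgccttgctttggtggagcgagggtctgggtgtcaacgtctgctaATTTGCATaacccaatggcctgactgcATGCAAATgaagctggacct
Gadd45b, chr10:80929841-80930072, plus strand: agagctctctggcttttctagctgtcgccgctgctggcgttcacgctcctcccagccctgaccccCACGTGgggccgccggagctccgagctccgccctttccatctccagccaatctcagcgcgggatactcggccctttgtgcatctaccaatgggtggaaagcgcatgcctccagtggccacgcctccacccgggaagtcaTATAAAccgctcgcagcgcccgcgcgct
Gadd45g, chr13:51846425-51846674, plus strand: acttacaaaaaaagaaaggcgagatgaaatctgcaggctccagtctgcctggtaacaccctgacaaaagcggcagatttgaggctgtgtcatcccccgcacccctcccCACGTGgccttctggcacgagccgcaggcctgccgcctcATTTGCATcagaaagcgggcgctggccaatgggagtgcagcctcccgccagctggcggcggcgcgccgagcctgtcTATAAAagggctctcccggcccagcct
Btg2, chr1:134079156-134079405, minus strand: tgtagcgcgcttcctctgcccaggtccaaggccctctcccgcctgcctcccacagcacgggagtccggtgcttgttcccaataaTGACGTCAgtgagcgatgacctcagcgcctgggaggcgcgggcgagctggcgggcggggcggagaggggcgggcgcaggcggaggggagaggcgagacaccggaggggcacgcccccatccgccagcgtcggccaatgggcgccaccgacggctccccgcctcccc
Plk2, chr13:110394794-110395043, plus strand: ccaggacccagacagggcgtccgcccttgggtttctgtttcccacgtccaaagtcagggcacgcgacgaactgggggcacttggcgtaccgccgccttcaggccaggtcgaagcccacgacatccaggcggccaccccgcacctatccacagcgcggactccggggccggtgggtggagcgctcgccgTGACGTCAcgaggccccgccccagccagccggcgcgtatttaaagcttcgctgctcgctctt
Mdm2, chr10:117710759-117711008, minus strand: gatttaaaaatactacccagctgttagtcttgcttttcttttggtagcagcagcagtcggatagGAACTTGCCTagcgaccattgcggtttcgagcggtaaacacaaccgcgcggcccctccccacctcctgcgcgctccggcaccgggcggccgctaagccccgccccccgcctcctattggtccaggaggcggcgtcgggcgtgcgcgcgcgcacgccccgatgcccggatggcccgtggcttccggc
Trp53, chr11:69580256-69580358, plus strand: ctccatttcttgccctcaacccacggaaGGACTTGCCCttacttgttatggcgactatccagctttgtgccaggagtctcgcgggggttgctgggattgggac

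All 10 genes had a promoter entry, in 11 windows since Mdm4 has a pair of starts. Motifs were searched on both strands of the whole 250 bases, including bases not printed, and were chosen after the member sequences had been read, so their counts are descriptions. The full cyclic AMP response element TGACGTCA, which contains TGACG on both strands, was present in Btg2 and Plk2 and in 1.55% of all 32851 windows. Its core TGACG was present in Btg1, Btg2, Plk2 and Plk3, and in 17.8% of all windows. The octamer occurred in Gadd45a, at 2 places, and in Gadd45g, against 1.60% of all windows. The E-box CACGTG was found in Gadd45b and Gadd45g (6.02% of all windows). The TATA box motif TATAAA was found in Gadd45b, Gadd45g, Btg1 and Trp53 (12.4%) and CCAAT in 7 of the 10 genes (33.8%). The TATA motif of Trp53 lay on the opposite strand at -248 to -243 from the start, in bases not printed. In Gadd45b, Gadd45g and Btg1 it lay between -46 and -21 on the gene's strand. TGANTCA, the AP-1 motif, was found in Mdm4 alone of the 10 (6.75%), and the CArG box in 0 of the 10 (1.47%). A p53 half-site by consensus was present in Gadd45a, Mdm2 and Trp53 and in 7.13% of all windows. A full p53 site, meaning a pair of half-sites up to 13 bases apart, was found in these windows for 0 of the 10 genes and in 0.0639% of all windows. Sites further upstream or inside the genes were not searched.

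Levels are given as TPM, transcripts per 1000000 after correction for transcript length, so genes can be set against each other. In bulk RNA, fewer cells with a transcript and less of it per cell cannot be told apart. The growth arrest genes were among the abundant transcripts of these cells, whereas p53 and Mdm4 were at moderate levels. Together the 10 genes summed to 4614, 4090 and 4881 TPM in replicates 1, 2 and 3, which is 0.453% ± 0.0402 of all TPM (SD, n = 3). The median of the 10 means was 237 TPM, against 11.5 TPM over all 12822 genes above 0 in at least 1 library. Tested with limma and adjusted by Benjamini-Hochberg over all genes, all 10 were above 1 TPM, a call made for 60.8% of all genes tested. Against the higher level of 100 TPM, 7 of the 10 were above, which 9.54% of all genes tested were. The 7 were Btg1, Gadd45a, Gadd45b, Btg2, Plk2, Gadd45g and Mdm2.

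**Figure D1:**
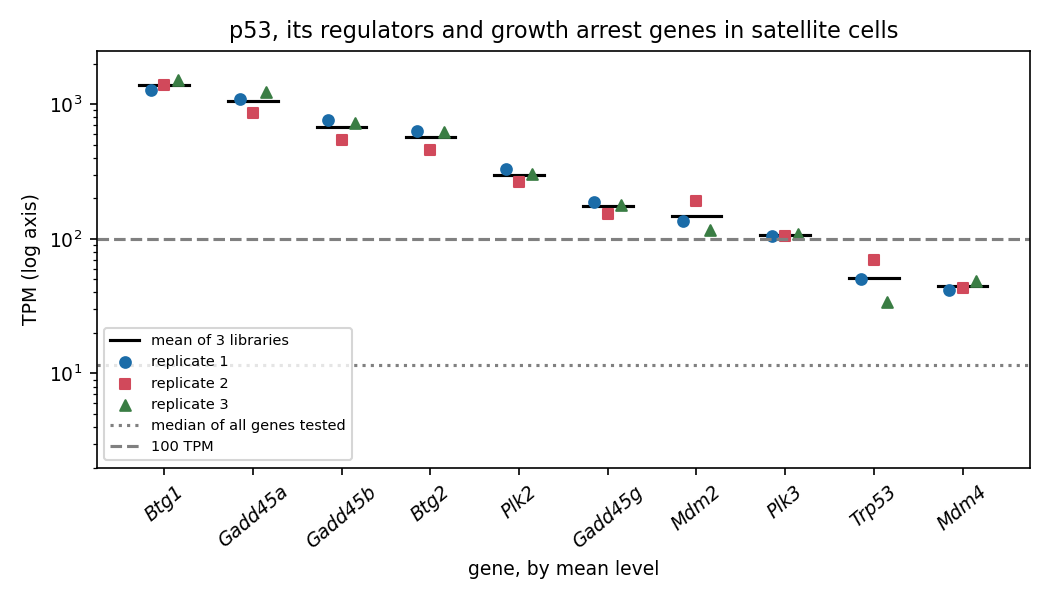
TPM (log axis) of the 10 genes in each of the 3 libraries, ordered by mean level. Points are libraries, bars their mean, the dashed line 100 TPM and the dotted line the median of all genes tested (11.5 TPM). Btg1 and Gadd45a lie highest, and Trp53 and Mdm4 are the genes whose points all lie under 100 TPM.

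Trp53 (chromosome 11, 69580359 to 69591873, plus strand, GENCODE M21 on GRCm38) encodes p53. It was at 50.1, 70.1 and 33.9 TPM in replicates 1, 2 and 3, a mean of 51.4 ± 18.1 TPM (SD, n = 3). Replicate 2 was high and replicate 3 low, and the highest value was 2.07 times the lowest. The mean lay below 100 TPM, at a log2(TPM + 0.1) difference of -1.02 (SE 0.219, limma adjusted p = 0.00176). Of the genes tested, 21.1% had a mean at least as high. The words of 31 bases in its longest transcript recur elsewhere for 9.49%, mostly in the pseudogene Trp53-ps. The genes whose values over the 3 libraries lay nearest to those of Trp53 were Vezf1, Mtfr1l and Gorasp2, each within 0.116 of it in every library on the log2 scale. Its relatives were hardly seen, with Trp63 listed at 0, 0 and 0.8 TPM and Trp73 at 0 in all 3 libraries. Neither was called above 1 TPM by limma, with or without adjustment (0 of 2 at an unadjusted p under 0.05).

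The inhibitors of p53 stood at unlike levels. Mdm2 (chromosome 10, 117688875 to 117710758, minus strand), the ligase, was at 136, 191 and 117 TPM and averaged 148 ± 38.5 TPM (SD, n = 3). Like Trp53 it was highest in replicate 2 and lowest in replicate 3. It lay 0.54 above 100 TPM on the log2 scale (SE 0.147, limma adjusted p = 0.00611). This call ended without replicate 2 (limma adjusted p = 0.0651, 0.34 above) and without a variance trend (limma adjusted p = 0.129), the range over 8 alternatives being 3.62e-05 to 0.129. Mdm4 (chromosome 1, 132959484 to 133030561, minus strand), which restrains p53 without degrading it, was at 41.8, 42.8 and 48.6 TPM, a mean of 44.4 ± 3.65 TPM. Its libraries lay close together, and it was below 100 TPM at a log2 difference of -1.17 (SE 0.177, limma adjusted p = 0.000342). Of the 31-base words of the longest Mdm4 transcript, 27.6% also occur in the pseudogene Mdm4-ps, so how its reads were divided could touch its level.

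Within each library Mdm2 exceeded p53 itself. The ratio of Mdm2 to Trp53 was 1.44, 1.45 and 1.79 on the log2 scale in replicates 1 to 3, a mean of 1.56 ± 0.198 or 2.95-fold. The ratio moved less between libraries than either gene did, whose SDs were 0.361 for Mdm2 and 0.523 for Trp53 on the same scale. Mdm2 also exceeded Mdm4 in 3 of 3 libraries, 3.28-fold on average with single libraries between 2.42-fold and 4.46-fold. Mdm4 and Trp53 could not be ordered, as Mdm4 was higher in replicate 3 and lower in replicates 1 and 2 (mean log2 ratio -0.15 ± 0.620, exact sign-flip permutation p = 0.75, two-sided). In all, 8 ratios between related genes were formed. The other 7 each gave p = 0.25 by the same exact permutation test, its floor with 3 libraries, so none could pass 0.05.

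**Figure D2:**
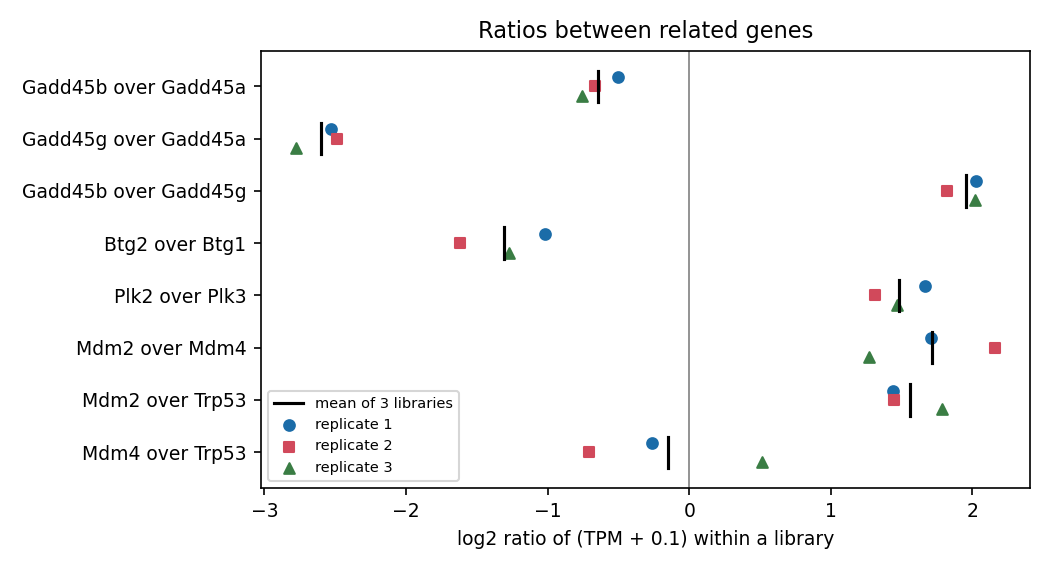
Log2 ratio of (TPM + 0.1) between related genes within each library (points), with the mean of the 3 libraries (bars). The points of 7 ratios lie on 1 side of zero, and those of Mdm4 over Trp53 lie on both.

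The GADD45 genes encode small acidic proteins that bind PCNA, p21 and the kinase MAP3K4 and slow the cell cycle under stress. Gadd45a (chromosome 6, 67035096 to 67037457, minus strand), the member best known as a p53 target, was at 1090.03, 863 and 1233 TPM in replicates 1 to 3. Its mean was 1062 ± 186 TPM, at rank 169 of the table, with replicate 2 the low library. Gadd45b (chromosome 10, 80930073 to 80932204, plus strand), known for induction by NF-kappaB and TGF-beta signals, was at 770.04, 544 and 729.6 TPM and averaged 681 ± 120.5 TPM (rank 264). Gadd45g (chromosome 13, 51846678 to 51848468, plus strand), first known as a cytokine-response gene, was at 189, 154 and 179.8 TPM and averaged 174 ± 18.1 TPM (rank 903). All were above 100 TPM, by 3.39 (SE 0.106), 2.75 (SE 0.11) and 0.80 (SE 0.111) on the log2 scale for Gadd45a, Gadd45b and Gadd45g (limma adjusted p = 1.13e-08, 6.41e-08 and 0.000263).

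Gadd45a led the family in every library. Gadd45b stood at 0.641 times Gadd45a (log2 ratio -0.64 ± 0.13, lower in 3 of 3 libraries), and Gadd45g at 0.165 times Gadd45a (log2 ratio -2.60 ± 0.158, 3 of 3). Gadd45b exceeded Gadd45g 3.88-fold, with libraries between 3.53-fold and 4.07-fold. The family summed to 2049, 1562 and 2143 TPM, with replicate 2 lowest. Gadd45a made up 53.2%, 55.3% and 57.6% of that sum in replicates 1 to 3, Gadd45b 37.6%, 34.8% and 34.0%, and Gadd45g 9.22%, 9.87% and 8.39%. The annotation places another gene, E230016M11Rik, on the strand opposite Gadd45a with 337 shared exon bases. The strand setting of the libraries is not given, so reads from both genes cannot be told apart in that stretch. E230016M11Rik had no row of its own, and 17.4% of the 31-base words of the longest Gadd45a transcript occur in it. Its reads, if any, could therefore touch the Gadd45a level. Gadd45b and Gadd45g share no 31-base word with another annotated gene.

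Of the partners of the GADD45 proteins, 10 of 14 were above 1 TPM, against 60.8% of all genes tested. The list median was 36.5 TPM, against 11.5 TPM over all genes tested. Pcna, the sliding clamp of DNA replication, averaged 393 ± 25.2 TPM, the p38 activator Map2k3 355 ± 26.2 TPM and Cdkn1a (p21) 299.9 ± 27.1 TPM. The mitotic kinase Cdk1 (0, 0.12 and 0 TPM) and its cyclin Ccnb1 (0, 0 and 0.17 TPM), also bound by GADD45 proteins, were below 1 TPM (limma adjusted p = 0.0316 and 0.0398). Both calls ended when any 1 replicate was left out, with limma adjusted p between 0.499 and 0.544 wherever the gene was still above 0.

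BTG1 and BTG2 are antiproliferative proteins that bring the CCR4-NOT deadenylase to messenger RNAs. Btg1 (chromosome 10, 96617006 to 96622809, plus strand) was the most abundant of the 10 genes, at 1271, 1401 and 1505 TPM, a mean of 1392 ± 117 TPM and rank 122 of the table. Btg2 (chromosome 1, 134075170 to 134079120, minus strand), both a p53 target and an immediate-early gene, was at 628, 455 and 622 TPM and averaged 568 ± 98.1 TPM (rank 312). Btg1 was lowest in replicate 1 and Btg2 in replicate 2. They lay 3.79 (SE 0.0847) and 2.49 (SE 0.11) above 100 TPM on the log2 scale (limma adjusted p = 1.13e-09 for Btg1 and 1.36e-07 for Btg2). Btg2 stood at 0.405 times Btg1 (log2 ratio -1.30 ± 0.303, lower in 3 of 3 libraries), and replicate 2 had the widest gap, at 0.325 times.

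Of 9 relatives and deadenylase partners of these proteins, 8 passed 1 TPM, against 60.8% of all genes tested. The list median was 89.3 TPM. Btg3 averaged 304 ± 22.7 TPM, the arginine methyltransferase Prmt1 253 ± 73.6 TPM, Tob1 187 ± 51.9 TPM and Tob2 55.2 ± 10.6 TPM. Btg4, an oocyte gene, was listed at 0 in all 3 libraries. The means of both Btg1 and Btg2 lay above that of every other BTG or TOB gene measured.

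PLK2 and PLK3 are Polo-like kinases that respond to stress and growth signals, unlike PLK1 and PLK4, which serve mitosis and centriole duplication. Plk2 (chromosome 13, 110395046 to 110400844, plus strand) was at 332, 263 and 303 TPM and averaged 299 ± 35.0 TPM, with replicate 2 lowest. It lay 1.57 above 100 TPM on the log2 scale (SE 0.102, limma adjusted p = 2.67e-06). Plk3 (chromosome 4, 117128655 to 117133963, minus strand) was at 105, 106 and 109 TPM, a mean of 107 ± 2.35 TPM that was not told apart from 100 TPM (log2 difference 0.09, SE 0.12, limma adjusted p = 0.468). All 3 libraries of Plk3 lay above 100 TPM, and this SE, moderated by limma, exceeded their own log2 SD of 0.0316. Plk2 exceeded Plk3 2.79-fold, in 3 of 3 libraries. Tctex1d4, on the strand opposite Plk3 with 84 shared exon bases, was listed at 0, 3.43 and 0 TPM. The other members, Plk1 (0, 0.34 and 0 TPM), Plk4 (1.42, 5.33 and 11.4 TPM) and Plk5 (0 in all libraries), were not called above 1 TPM by limma (0 of 3, or 1 above and 1 below it at an unadjusted p under 0.05). Without replicate 1, Plk4 was called above it (limma adjusted p = 0.000961).

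Ranked by mean, the 10 genes ran Btg1, Gadd45a, Gadd45b, Btg2, Plk2, Gadd45g, Mdm2, Plk3, Trp53 and Mdm4. Of the 9 neighbouring pairs in this order, 6 had library values that did not overlap. The ranges overlapped for Gadd45b and Btg2, for Gadd45g and Mdm2, and for Trp53 and Mdm4. Gadd45b was still the higher of its pair in 3 of 3 libraries, whereas the other pairs changed order in 1 library each.

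The libraries did not move the 10 genes in 1 direction. Gadd45a, Gadd45b, Gadd45g, Btg2 and Plk2 were all lowest in replicate 2, at log2 deviations of -0.31 to -0.17 from their own mean. Mdm2 and Trp53 were highest in that library, 0.40 and 0.51 above their means. Thus 5 of 10 genes were lowest in replicate 2, against 29.6% of the 6765 genes averaging at least 10 TPM, and 2 of 10 were highest there, against 34.7%. Over those 6765 genes the median deviation was 0.02, 0.03 and -0.02 in replicates 1 to 3.

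**Figure D3:**
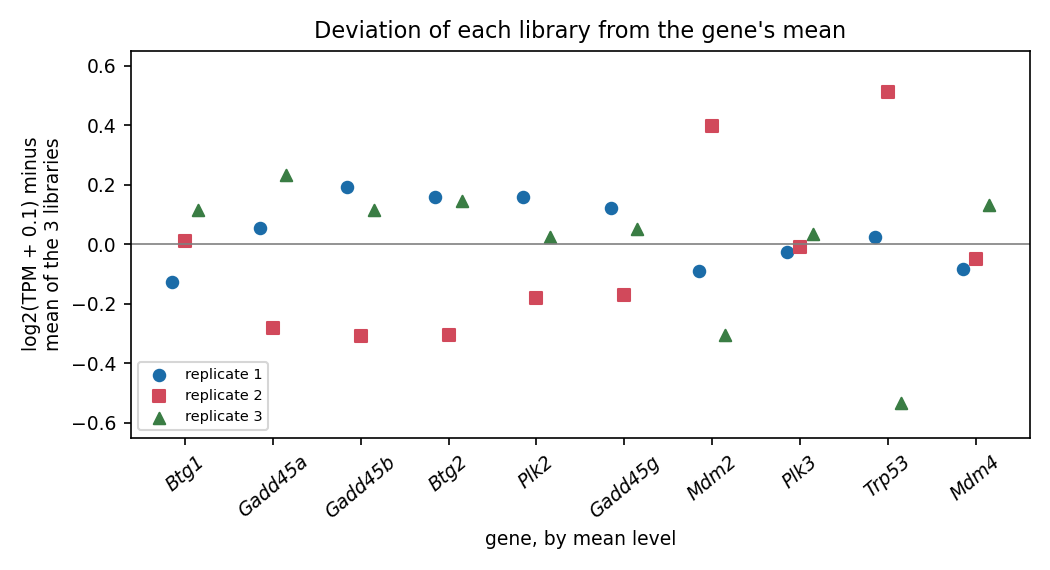
Deviation of each library from the gene's mean over the 3 libraries, in log2(TPM + 0.1), for the 10 genes. Replicate 2 (squares) is lowest for Gadd45a, Gadd45b, Btg2, Plk2 and Gadd45g and highest for Mdm2 and Trp53.

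Immediate-early and stress genes are known to respond to tissue digestion. Without Btg2, which that list also holds, 13 of 25 such genes (52.0%) were lowest in replicate 2 and 4 were highest there. Among genes averaging at least 10 TPM, 29.6% were lowest and 34.7% highest in that library. They summed to 19556, 16382 and 18331 TPM in replicates 1 to 3, while their mean log2 level was 8.83, 8.70 and 8.70, so on that scale replicates 2 and 3 were alike. Hspa1b, Egr1 and Fosb were the highest of them, at 2329 ± 539.5, 2326 ± 363 and 1655 ± 82.1 TPM. Myofibre markers were lowest in replicate 2 both summed (121, 97.8 and 216 TPM) and by mean log2 level (2.39, 1.72 and 2.81). Of the 6 myofibre markers averaging at least 10 TPM, however, only 2 were lowest in that library. The summed markers of mural cells (283, 235 and 280.4 TPM) were lowest there too, but their mean log2 level was lowest in replicate 1 (2.29, 2.92 and 3.24). Endothelial markers summed to 1950, 1589 and 2889 TPM, of which Fabp4 alone made up 1750, 1356 and 2587 TPM, and the other 9 were lowest in replicate 1 (199.9, 234 and 302 TPM). Leukocyte markers were highest in replicate 2, both summed (267, 367 and 293 TPM) and by mean log2 level (1.87, 2.71 and 1.29). Fibro-adipogenic markers were lowest in replicate 3, both summed (2543, 2443 and 2234 TPM) and by mean log2 level (5.57, 5.69 and 5.08). Schwann cell markers were lowest in replicate 1, both summed (156, 183 and 256 TPM) and by mean log2 level (2.04, 2.75 and 3.03). The part of digestion or of these other cells in the order of the libraries was not tested.

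The size of the spread differed among the 10 genes at a given level. On the log2 scale the SD over the libraries was 0.523 for Trp53 and 0.361 for Mdm2, against medians of 0.340 and 0.190 in the 200 genes nearest to each in level. Gadd45a, Gadd45b and Btg2 had SDs of 0.261, 0.2697 and 0.264, against 0.122, 0.132 and 0.134 in their neighbours. Plk3, Mdm4 and Gadd45g were the genes steadier than their neighbours, at 0.0316, 0.116 and 0.153, against 0.229, 0.348 and 0.177. Btg1 (0.122 against 0.109) and Plk2 (0.171 against 0.163) were close to theirs.

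**Figure D4:**
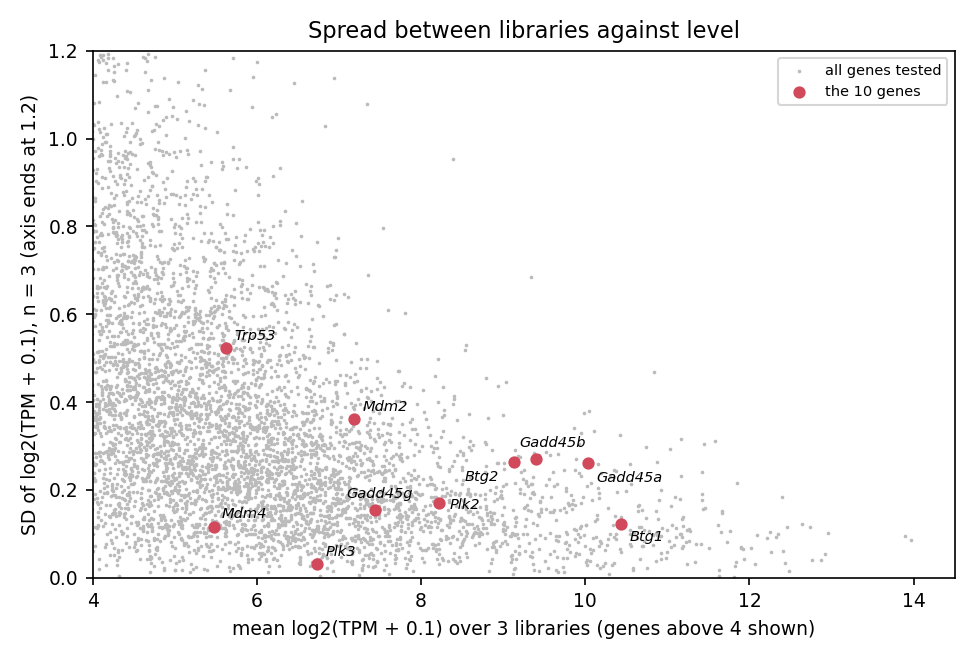
SD over the 3 libraries against mean level, both in log2(TPM + 0.1), for genes with a mean above 4 (grey) and the 10 genes (red). Trp53 and Mdm2 lie high for their level and Plk3 and Mdm4 low.

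The genes that act on p53 were measured alongside. Of 25 regulators, limma called 18 above 1 TPM after adjustment, a call made for 60.8% of all genes tested. Their list median was 21.2 TPM. The highest were Rpl11 at 3236 ± 229.9 TPM and Rpl5 at 2720 ± 144 TPM, ribosomal proteins that also bind MDM2, followed by Usp7, which removes ubiquitin from p53 and MDM2, at 192 ± 14.0 TPM. Among the DNA damage kinases, Atm was at 1.1, 2.11 and 0.84 TPM, Chek1 at 0, 3.4 and 3.84 TPM and Chek2 at 28.7, 20.1 and 0 TPM, and none of these was decided. Chek2 was called above 1 TPM when replicate 3, where it is listed at 0, was left out. Atr averaged 4.60 ± 1.07 TPM (limma adjusted p = 0.0468), a call that ended without replicate 1 (0.115) or 2 (0.178). The phosphatase Ppm1d, which switches the response off, averaged 22.7 ± 8.81 TPM. Cdkn2a, whose ARF product holds MDM2 off p53, was listed at 0 in all 3 libraries.

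Of 39 other p53 targets in the table, 29 passed 1 TPM, against 60.8% of all genes tested. The list median was 21.3 TPM. Btg3 and Cdkn1a, both also in lists above, led them, and Pmaip1 (Noxa), a trigger of cell death, averaged 152 ± 50.7 TPM. The sestrins Sesn1 and Sesn2, which damp growth signalling, averaged 31.6 ± 3.48 and 44.8 ± 11.3 TPM. Ccng1 averaged 5.54 ± 1.72 TPM and Zmat3 6.09 ± 3.53 TPM, both under the list median but above 1 TPM (limma adjusted p = 0.0196 and 0.0274). The Ccng1 call ended without replicate 1 (0.0571) or 3 (0.0639), and the Zmat3 call without replicate 2 (0.10) or 3 (0.154). The death effector Bax was at 31.6, 1.74 and 18.3 TPM, and Bbc3 (Puma), at 3.77, 1.65 and 5.37 TPM, was not decided. Each of Gadd45a, Gadd45b, Btg1 and Btg2 had a higher mean than any of these 39 genes.

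**Figure D5:**
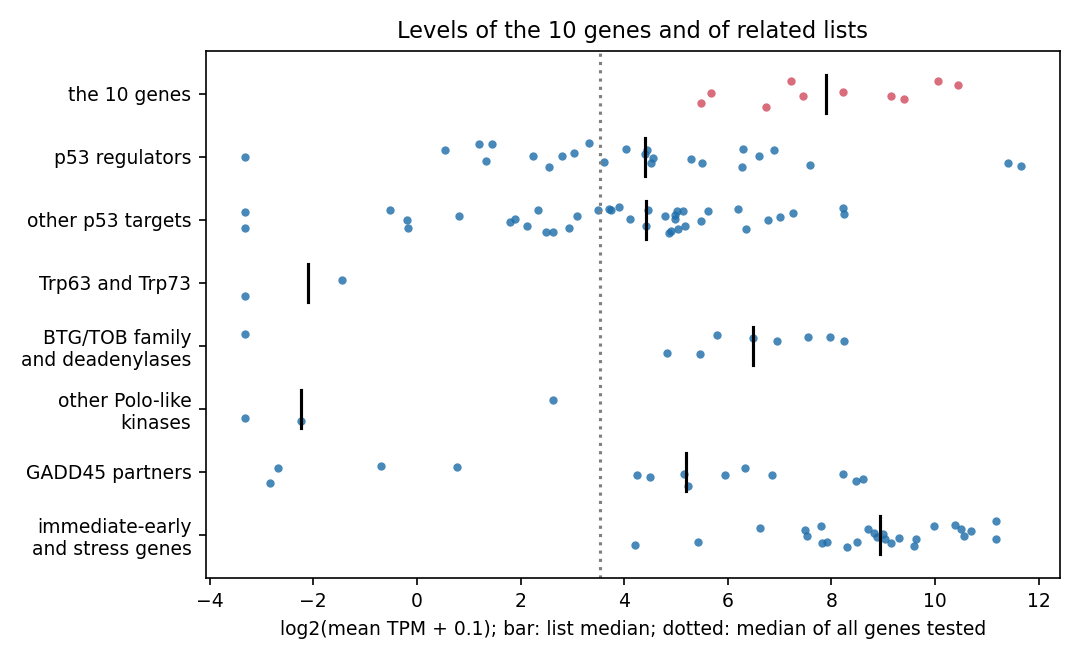
Mean levels, as log2(mean TPM + 0.1), of the 10 genes (red) and of related lists (blue), 1 point per gene, with list medians (bars) and the median of all genes tested (dotted). Points at the left edge are genes listed at 0 in every library.

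The cell population was checked against its markers. All 12 satellite cell markers were above 1 TPM, summing to 7778, 7778 and 7208 TPM in the 3 libraries, and to 3506, 3560 and 3293 TPM without Sdc4, the highest of them. Markers of other cells were held against the same level, a call made for 60.8% of all genes tested. Above 1 TPM were 7 of 10 fibro-adipogenic markers (sums of 2234 to 2543 TPM), 10 of 10 endothelial (199.9 to 302 without Fabp4, which is given above) and 5 of 12 leukocyte (267 to 367). So were 4 of 8 mural (235 to 283), 4 of 8 Schwann cell (156 to 256) and 5 of 10 myofibre markers (97.8 to 216). The mural marker Cnn1 (0, 0 and 0.18 TPM) was below 1 TPM (limma adjusted p = 0.0414). It was above 0 in replicate 3 only, and how its call held with a replicate left out is not reported here. Of the fibro-adipogenic markers, Gsn, Col3a1 and Dpt were highest, at means of 888, 585 and 572 TPM. Pdgfra (4.98, 0.11 and 0.06 TPM), Pi16 and Lum were not decided at 1 TPM. Cd3e and Myh2 were the markers listed at 0 in every library. The share of each transcript that came from satellite cells was not tested.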

How the data were processed

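RNA was isolated with a Picopure kit and made into libraries by Illumina protocols, per the labels. The submitters' processing notes name CASAVA 1.8, Bowtie 0.12.9, RSEM 1.2.3 and mm10, while their roles and settings, the strand and the annotation are not given in the sources. The authors deposited 1 table of TPM, which its name describes as renormalised without mitochondrial genes, with 1 column per library, so levels are relative to the genes kept. Read totals cannot be had from TPM, so sequencing depth is unknown, and only the spread of 3 libraries measures precision. Genes such as Rps27 are listed at 0, so a 0 may be a failed estimate. The labels do not say whether libraries came from separate animals, so p-values reflect only how these samples vary, possibly for technical reasons.

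Levels were fitted as log2(TPM + 0.1), which understates folds of low genes, with limma 3.58.1 in R 4.3.3. An intercept with trended empirical Bayes moderation was fitted to the 12822 genes above 0 in at least 1 library and tested against 1 TPM and 100 TPM, two-sided, with Benjamini-Hochberg adjustment over all genes tested (threshold 0.05). SEs of levels are limma's moderated values, which draw on all genes, while SDs come from each gene's own libraries. Ratios within libraries had an exact sign-flip permutation test. Positions and 31-base words came from GENCODE M21, promoters from RefSeq GRCm38.p6.

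The 10 members, the lists and the tests were chosen with earlier results of these data known. Named genes are, by rule, the members, the 3 highest and any below 1 TPM of each pathway list, a fixed set of p53 pathway genes, and the 3 genes nearest to Trp53. The rule also covers marker lists, whose members are given mostly as sums. Of the listed symbols, 1 had no row. List totals include genes at 0 in every library, which were not tested, whereas the 60.8% set beside them is of genes tested. Alternatives were pseudocounts of 0.01 and 1, a minimum mean of 0.1 TPM, median-ratio rescaling, no variance trend, and each replicate left out. Fits with a replicate left out rest on 2 libraries and lean on the variance trend over all genes. Their p-values are therefore not comparable with those of 3 libraries. For Gadd45a against 100 TPM, the limma adjusted p went from 1.13e-08 to 2.41e-176 without replicate 2.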

Additional observations from a re-analysis of the deposited data

How the results depend on the processing

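The count of members above 1 TPM was 10 under all 8 alternatives, and the count above 100 TPM was 6 or 7, the loss being Mdm2 without replicate 2 and without a variance trend. Of 40 alternative values of the 8 ratios, 39 kept their sign. In 7 of the ratios the 3 libraries shared a sign, so leaving out a replicate could not reverse that sign. The log2 ratio of Mdm4 to Trp53 lay between -0.49 and 0.13 when 1 replicate was left out, and turned positive without replicate 2. Of 56 alternative list counts, 55 stayed within 1.5 times the count reported. The exception was the other Polo-like kinases, of which 0 or 1 were above 1 TPM when 1 replicate was left out, the 1 being Plk4 without replicate 1. After rescaling by the median ratio, an alternative added after seeing the data, 5 members were still lowest and 2 highest in replicate 2. No paired analysis was possible because the samples form 1 group. Depth is unknown, so values near 0 cannot be given a detection limit. The 3 libraries cannot bring an exact sign-flip p under 0.25.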
